A study of Mus musculus with 6 samples.

Results

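The genes examined here were 42 genes of the kinetochore and the spindle assembly checkpoint, chosen by their symbols from the 39017 genes of a table of exon counts. They were measured by RNA-seq in induced germinal center B cells (iGBs), which are splenic B cells of C57BL6/J mice grown on 40LB feeder cells. These feeders are fibroblasts that provide CD40L and BAFF. IL-4 was added (5 ng/ml per the labels, while the study's methods give a lower dose for these cultures), culture lasted 3.5 days, and the irradiated feeders were then depleted with an antibody against H2Kd (H2K in the labels). The 3 Control libraries came from Cγ1-cre mice and the 3 Prmt1-null libraries from Prmt1 F/F Cγ1-cre mice, so both groups carried the Cre transgene. Cγ1-cre acts once B cells are activated, so that the gene is intact in resting B cells. Control 1 and Prmt1-null 3 were male, and the other 4 libraries were female. The ages of the mice were not given in the sources used here.

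The kinetochore is the protein structure that assembles on the centromere of each chromosome and holds it to the microtubules of the mitotic spindle. Its inner layer reads the centromeric nucleosome, its outer layer binds microtubules, and the spindle assembly checkpoint delays anaphase while any kinetochore is unattached. Most of these genes are transcribed mainly in late S phase, G2 and mitosis, and germinal center B cells divide rapidly. The comparison addresses whether their transcripts differed between Control iGBs and iGBs in which Prmt1 was targeted for deletion. Prmt1 is the main enzyme that places asymmetric dimethyl marks on arginine.

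Many late cell cycle genes share short promoter elements, the cell cycle genes homology region (CHR), read by the DREAM and MuvB complexes, and the CCAAT box, read by NF-Y. RefSeq promoter windows (build GRCm38.p6, 250 bases before to 50 bases after a start site) were found for 36 of the 42 genes, some with several start sites, 40 windows in all. No window was used for Aurkb, Incenp, Nsl1, Ska1, Spc24 or Zwilch. Both strands were searched for the CHR words TTTGAA and TTCGAA. The match nearest the start site is shown for Cenpa, the gene with the highest fold change, for 5 genes that were lower at an unadjusted p under 0.05 (Ndc80, Casc5, Spag5, Bub1b and Ttk), and for Cdc20 and Plk1, whose fold changes were near 0. The Bub1b sequence stops at the end of its window. The 6 capitals mark the match on the strand of the gene (TTCAAA is TTTGAA on the other strand), and positions count from the start site as +1.
Cenpa, chr5:30666890-30666919, plus strand, match at +17: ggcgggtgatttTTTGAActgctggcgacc
Ndc80, chr17:71526811-71526840, minus strand, match at +30: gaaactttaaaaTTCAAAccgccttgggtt
Casc5, chr2:119047138-119047167, plus strand, match at +32: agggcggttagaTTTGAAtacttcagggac
Spag5, chr11:78301582-78301611, plus strand, match at +4: gtgcgtattgggTTCAAAtagaggcggcgg
Bub1b, chr2:118598239-118598260, plus strand, match at +41: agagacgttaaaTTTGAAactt
Ttk, chr9:83834684-83834713, plus strand, match at +8: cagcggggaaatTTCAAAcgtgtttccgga
Cdc20, chr4:118437344-118437373, minus strand, match at −18: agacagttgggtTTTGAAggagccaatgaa
Plk1, chr7:122159453-122159482, plus strand, match at +31: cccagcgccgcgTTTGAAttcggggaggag

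A CHR word was present in the windows of 19 of the 36 genes (52.8%), or 50.0% of their 40 windows, against 19.2% of all 32851 RefSeq promoter windows. CCAAT was present for 24 genes (66.7%), or 67.5% of windows, against 37.4% of all windows. CHR and CCAAT occurred together for 16 genes (44.4% of genes), against 7.5% of all windows. The first share is per gene and the second per window, and some genes have several windows. Of 20 distinct CHR matches, 2 shared bases with a CCAAT match. The E2F words TTTGGCGC, TTTGCCGC, TTTCGCGC and TTTCCCGC were present for 3 genes (8.3%), or 7.5% of windows, against 2.3% of all windows. These are matches of letters and not measured binding, and the genes were not chosen by them.

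Total counts were 45343250 to 62774232 per library and did not separate by group (two-sided exact permutation test, p = 0.4, where the smallest p that 3 against 3 allows is 0.1). Prmt1 itself, on chromosome 7 (44975989-44986568, GRCm38), had normalized counts of 3964, 3924 and 4838 in Control 1, 2 and 3 and 1745, 1478 and 1477 in Prmt1-null 1, 2 and 3. All Prmt1-null libraries were below all Control libraries, and the log2 fold change was −1.44 ± 0.10 (SE; edgeR adjusted p = 1.1e-05). Prmt1 counts in Prmt1-null iGBs were at 36.9% of the Control mean, and where these remaining counts came from was not tested. The levels of B cell markers, summed and scaled to library size (CPM), were 10758 to 12129 in Control and 11788 to 12155 in Prmt1-null iGBs. Of these 8 markers Cr2, a complement receptor, passed the threshold as lower (8907, 8315 and 7870 against 6973, 5167 and 5838; log2 fold change −0.48, adjusted p = 0.024).

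All 42 genes passed the filter on low counts, with raw counts from 205 (Ska1) to 15218 (Mad2l1) in a library. Of the 42, 39 had a lower fitted level in Prmt1-null iGBs and 3 (Cenpa, Cenpl and Mis12) a higher one. The differences were small: the log2 fold changes ran from −0.52 (Spc24) to 0.29 (Cenpa), with a median of −0.15 against 0.00 over the 18268 genes tested, and with SEs of 0.061 to 0.187. A gene was called when edgeR's quasi-likelihood test gave it an adjusted p below 0.05 and its normalized count averaged over 100. By this rule 0 of the 42 genes were called lower and 0 higher, where 0.602% of all genes tested were called lower and 0.580% higher. The smallest adjusted p was 0.068 (Spc24). At an unadjusted p under 0.05, 16 genes (38.1%) were lower, against 7.00% of all genes tested, and 1 gene, Cenpa, was higher, against 6.50%. In bulk RNA, fewer cells in mitosis and less of these RNAs per cell cannot be told apart.

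DESeq2's Wald test was run at the same thresholds but without edgeR's filter on low counts, so that test and filter changed together. It called 6 genes lower (Spc24, Ndc80, Spag5, Aurkb, Casc5 and Bub1b), where 2.98% of all genes with an adjusted p were called lower. It called Cenpa higher, where 2.44% were. limma-voom called 0 in either direction, with 17 lower at an unadjusted p under 0.05, against 7.11% of all genes tested. Without a filter on low counts edgeR called Spc24, Ndc80, Aurkb and Casc5 lower, where 1.38% of all genes were called lower. Without Control 3 it called Spc24 and Casc5 lower, where 0.896% of all genes were. Without Prmt1-null 1 the number lower at an unadjusted p under 0.05 was 10 in place of 16, against 5.40% of all genes. It was 19 both without Control 3 (7.97% of all genes) and without Prmt1-null 3 (5.75%), and 17 with the replicate number as a block (6.41%). The calls of these genes therefore depended on the processing, with the filter on low counts as a part of it, and on these libraries. Their directions did not: Spc24, Ndc80, Spag5, Aurkb, Casc5 and Bub1b were below 0 and Cenpa above 0 in the values given here and in all alternatives tried. Leaving out 1 library moved the log2 fold change of 27 of the 42 genes by over 1.5 times or turned its sign (9 genes: Cenpl, Cenpo, Cenpw, Zwint, Cdc20, Ska1, Ska2, Knstrn and Plk1). Among the 17 genes with an unadjusted p under 0.05 these were Nuf2 (−0.12 without Prmt1-null 1), Casc5 (−0.16 without Control 1) and Bub1 (−0.15 without Control 1). The others that kept their sign were Cenpe, Cenpf, Incenp and Mad1l1, given further on, and Cenph, Cenpm, Cenpn, Cenpq, Spc25, Dsn1, Bub3, Birc5, Cdca8, Sgol1 and Ska3, whose values nearest to 0 ran from −0.21 (Cenpm, without Prmt1-null 1) to −0.01 (Cenpn, without Control 2).

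**Figure D1:**
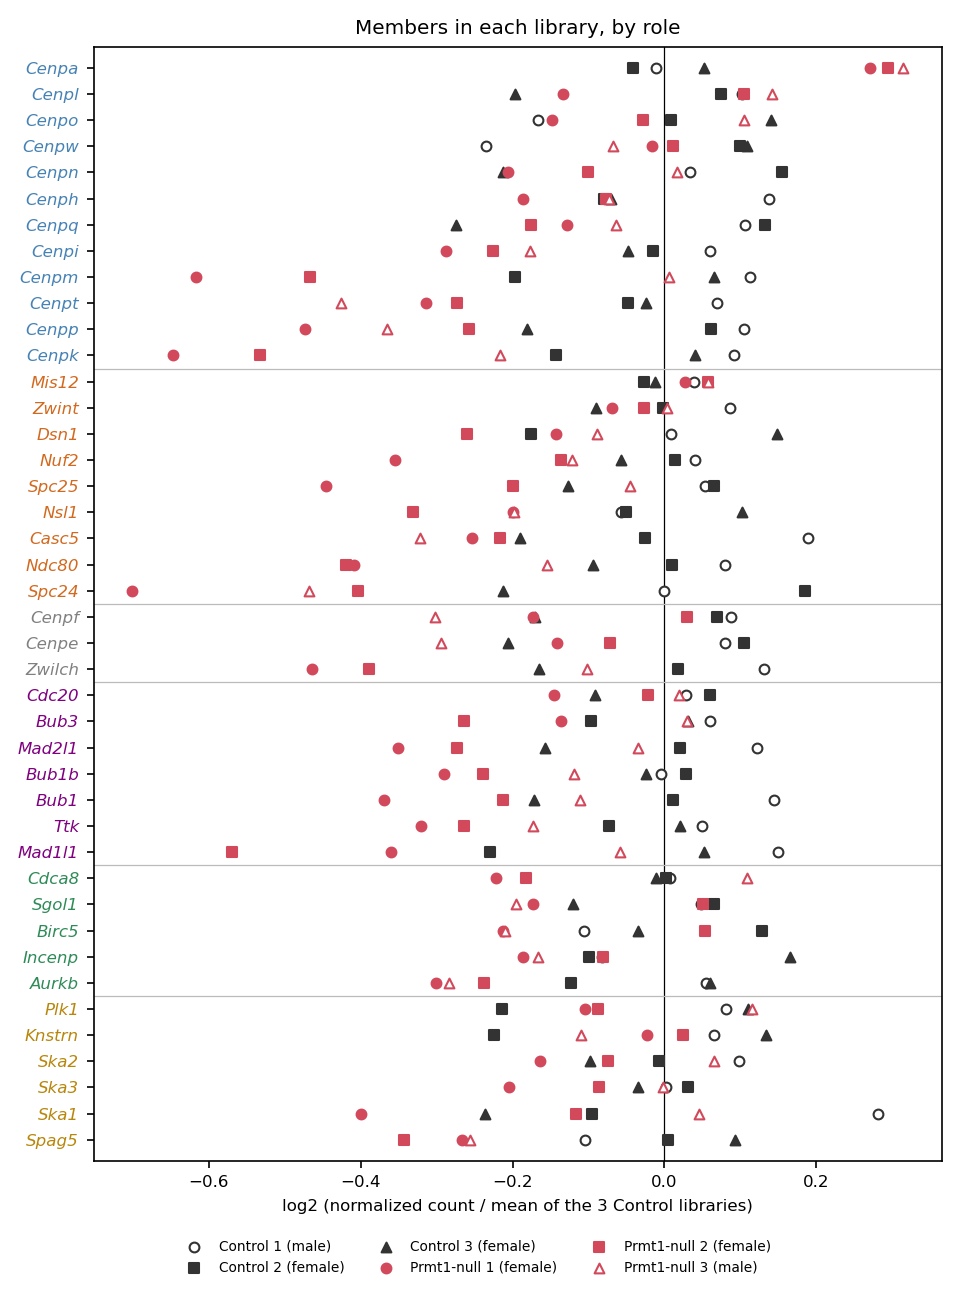
Normalized count of each gene in each library as a log2 ratio to the mean of the 3 Control libraries. Black symbols are Control and red symbols Prmt1-null libraries, circles, squares and triangles are replicates 1, 2 and 3, open symbols are male mice, and gray lines separate the role groups named in the text. For Cenpa all red symbols lie to the right of all black ones, and for 13 genes, among them Spc24, Ndc80, Aurkb and Cenpk, all red symbols lie to the left.

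The plot of the genes in each library shows how the groups overlapped. All 3 Prmt1-null libraries were below all 3 Control libraries for 13 genes (31.0%), against 9.92% of all genes tested, and above them for Cenpa, against 9.95%. The summed level of the 42 genes was 2121, 2007 and 1922 CPM in Control 1, 2 and 3 and 1683, 1773 and 1906 CPM in Prmt1-null 1, 2 and 3. The groups did not overlap, but Control 3 and Prmt1-null 3 nearly met. Libraries differed within a group: Prmt1-null 1 was the lowest of all 6 for 21 genes, and Prmt1-null 3 was the highest of its group for 30. Control 1 was the highest of all 6 for 19 and of its group for 22. Control 1 and Prmt1-null 3 are the male libraries. As a median log2 ratio to the Control mean, the genes stood at 0.06, 0.00 and −0.04 in Control 1, 2 and 3 and at −0.21, −0.17 and −0.09 in Prmt1-null 1, 2 and 3. With fewer libraries to keep apart, the number of genes lower without overlap was 22 without Prmt1-null 3 (14.4% of all genes), 23 without Control 3 (16.3%) and 20 without Control 2 (14.3%).

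Between the 2 Control and 2 Prmt1-null female libraries, 38 of the 42 genes were below 0 with a median log2 fold change of −0.17, and 24 genes were lower without overlap, against 21.0% of all genes. In the male pair, which has no replicate, 35 were below 0 with a median log2 ratio of −0.15. Casc5 stood at −0.13 in females and −0.51 in the male pair, and Cenpf at −0.02 and −0.39. The sex by genotype term of edgeR, whose spread came from the female libraries alone, had an adjusted p under 0.05 for 0 of the 42 genes (smallest 0.54) and for 0.153% of all genes, and an unadjusted p under 0.05 for 1 of the 42 and for 8.09% of all genes. With 1 male library per group, this does not show that the sexes were alike. In edgeR with sex as a covariate, the smallest adjusted p among the 42 genes was 0.054 (Ndc80).

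**Figure D2:**
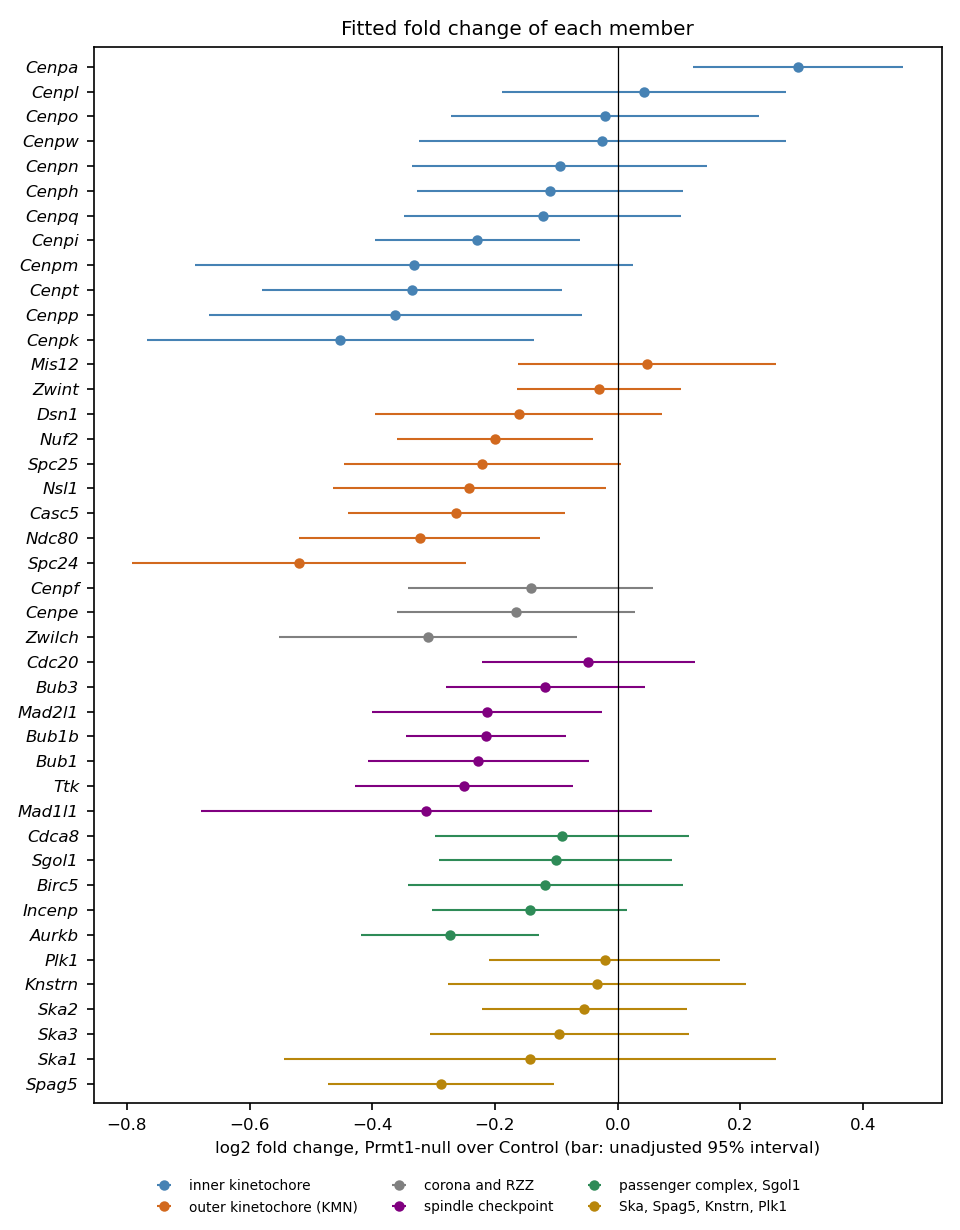
Fitted log2 fold change of each gene, Prmt1-null over Control (points), with its unadjusted 95% interval from edgeR (bars), grouped and colored by role. Points to the left of the vertical line at 0 are lower in Prmt1-null iGBs, and the 17 intervals that do not reach 0 are those of Cenpa on the right and of 16 genes on the left.

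The inner kinetochore had 12 genes, of which 10 were below 0 with a median log2 fold change of −0.12. At an unadjusted p under 0.05, 4 were lower (Cenpk, Cenpt, Cenpi and Cenpp) and Cenpa was higher. The shares of all genes tested at this threshold, 7.00% lower and 6.50% higher, apply to each role group below as well. Cenpa encodes the histone H3 variant that takes the place of H3 in centromeric nucleosomes and marks where a kinetochore forms. It lies on chromosome 5 (30666777-30674830), and its normalized counts were 1581, 1548 and 1652 in Control 1, 2 and 3 and 1923, 1955 and 1982 in Prmt1-null 1, 2 and 3. The groups were clearly apart and each had little spread, and Prmt1-null iGBs had 123% of the Control mean. The log2 fold change was 0.29 ± 0.08 (SE; 95% interval 0.12 to 0.47; adjusted p = 0.099 by edgeR and 0.017 by DESeq2). In the alternatives tried, it stayed between 0.26 and 0.32.

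Cenpk, at the other end of this group, encodes a subunit of the constitutive centromere network that sits on the CENP-A nucleosome. It had 553, 470 and 533 normalized counts in Control 1, 2 and 3 and 331, 359 and 446 in Prmt1-null 1, 2 and 3. Prmt1-null 3 came close to Control 2, and the groups did not overlap. The log2 fold change was −0.45 ± 0.15 (SE; adjusted p = 0.17). Exons of Cenpk share 233 bases with those of Ppwd1 on the other strand, and the strand setting of the counting is not given in the sources used here, so its count is uncertain. Cenpi, a subunit of the same complex with no such overlap, had a log2 fold change of −0.23 ± 0.08 (SE). Cenpt and Cenpp, which do have opposite-strand overlaps, had −0.34 ± 0.11 and −0.36 ± 0.14. Cenpm stood at −0.33 ± 0.17, with Prmt1-null 3 inside the Control range. The other 6 genes of the inner layer (Cenph, Cenpl, Cenpn, Cenpo, Cenpq and Cenpw) lay between −0.12 and 0.04. Of these, Cenpo shares 1632 exon bases with Adcy3 and Ptrhd1 on the other strand, and Cenpq 95 with Mut, so these counts are uncertain too.

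The outer kinetochore is built from the KNL1, MIS12 and NDC80 complexes (the KMN network), which form the main microtubule-binding surface. Of its 9 genes, 8 were below 0 and 5 were lower at an unadjusted p under 0.05 (Spc24, Ndc80, Casc5, Nuf2 and Nsl1), with a median log2 fold change of −0.22. The groups did not overlap for the same 5 genes, where 9.92% of all genes tested were lower without overlap. Spc24 (chromosome 9, 21755442-21760303), the subunit that with Spc25 anchors the NDC80 complex to the inner layer, had normalized counts of 1092, 1243 and 943 in Control 1, 2 and 3. The Prmt1-null libraries had 672, 826 and 790, all below the lowest Control library. Spc24 in Prmt1-null iGBs was at 69.8% of the Control mean, the lowest share among the 42 genes, with a log2 fold change of −0.52 ± 0.13 (SE; 95% interval −0.79 to −0.25; adjusted p = 0.068 by edgeR, 0.057 by limma-voom and 0.0049 by DESeq2).

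Ndc80 (chromosome 17, 71496100-71526857) encodes the subunit whose head binds the microtubule. Its normalized counts were 2391, 2278 and 2120 in Control 1, 2 and 3 and 1704, 1692 and 2032 in Prmt1-null 1, 2 and 3. Prmt1-null 3 was again nearest to Control, and the log2 fold change was −0.32 ± 0.09 (SE; adjusted p = 0.11 by edgeR and 0.027 by DESeq2). Nuf2, with which Ndc80 forms the microtubule-binding head, stood at −0.20 ± 0.07 and Spc25 at −0.22 ± 0.11 (−0.12 without Prmt1-null 1). Casc5 (Knl1), the scaffold on which the checkpoint proteins gather, stood at −0.26 ± 0.08. Its levels in the libraries were 10634, 9163 and 8175 in Control 1, 2 and 3 and 7822, 8028 and 7459 in Prmt1-null 1, 2 and 3, with Control 1 well above the others. Without Control 1 its log2 fold change was −0.16. Within the MIS12 complex Nsl1 stood at −0.24 ± 0.10, Dsn1 at −0.16 ± 0.11 and Mis12 at 0.05 ± 0.10 (95% interval −0.16 to 0.26). Mis12 had 994, 949 and 959 normalized counts in Control 1, 2 and 3 and 985, 1007 and 1007 in Prmt1-null 1, 2 and 3, so that the groups overlapped within a narrow range. Exons of Mis12 share 231 bases with Derl2 on the other strand. Zwint, which links the scaffold to the corona, stood at −0.03 ± 0.06.

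The fibrous corona forms on unattached kinetochores and catches microtubules. All 3 of its genes were below 0 (median log2 fold change −0.17), and Zwilch was lower at an unadjusted p under 0.05. Zwilch, a subunit of the RZZ complex that brings dynein and checkpoint proteins to the corona, had 1860, 1719 and 1514 normalized counts in Control 1, 2 and 3 and 1230, 1296 and 1582 in Prmt1-null 1, 2 and 3. Prmt1-null 3 was above Control 3, so that the groups overlapped, and the log2 fold change was −0.31 ± 0.11 (SE; adjusted p = 0.23). Exons of Zwilch share 254 bases with Lctl on the other strand.

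Cenpe, the kinesin that moves chromosomes toward the spindle equator, had 3070, 3125 and 2519 normalized counts in Control 1, 2 and 3 and 2634, 2765 and 2370 in Prmt1-null 1, 2 and 3. For Cenpf, a large corona protein that binds dynein regulators, they were 3246, 3206 and 2715 in Control and 2711, 3120 and 2479 in Prmt1-null libraries. For both, Control 3 lay within the range of the Prmt1-null libraries. The log2 fold changes were −0.17 ± 0.09 for Cenpe (adjusted p = 0.46) and −0.14 ± 0.09 for Cenpf (adjusted p = 0.55), and −0.11 and −0.07 without Prmt1-null 3.

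The checkpoint itself senses unattached kinetochores and holds back the anaphase-promoting complex. All 7 of its genes were below 0 with a median log2 fold change of −0.21, and 4 were lower at an unadjusted p under 0.05 (Bub1b, Ttk, Bub1 and Mad2l1). Bub1b (chromosome 2, 118598211-118641591), which encodes BubR1 of the mitotic checkpoint complex, had 7105, 7267 and 7004 normalized counts in Control 1, 2 and 3 and 5825, 6040 and 6562 in Prmt1-null 1, 2 and 3. The Control libraries were close together and above all Prmt1-null libraries. The log2 fold change was −0.21 ± 0.06 (SE; 95% interval −0.34 to −0.08; adjusted p = 0.11 by edgeR and 0.030 by DESeq2).

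Ttk (Mps1), the kinase that starts checkpoint signaling, had 2059, 1892 and 2019 normalized counts in Control 1, 2 and 3 and 1594, 1657 and 1766 in Prmt1-null 1, 2 and 3. Again the groups did not overlap, and the log2 fold change was −0.25 ± 0.08 (SE; adjusted p = 0.18). Bub1, the kinase that recruits BubR1, stood at −0.23 ± 0.08, Mad2l1, which captures Cdc20, at −0.21 ± 0.09, and Bub3, which brings both Bub proteins to the kinetochore, at −0.12 ± 0.08. For these 3 genes the groups overlapped through a high Prmt1-null 3. Mad1l1, the anchor for Mad2l1, had the lowest counts of the group, with 401, 308 and 375 in Control 1, 2 and 3 and 281, 243 and 347 in Prmt1-null 1, 2 and 3. The spread of Mad1l1 was wide and the groups overlapped (log2 fold change −0.31 ± 0.17, SE; 95% interval −0.68 to 0.06; adjusted p = 0.46). Without Prmt1-null 2 it was −0.19.

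Cdc20, which the checkpoint complex inhibits and which activates the anaphase-promoting complex, had 2210, 2259 and 2034 normalized counts in Control 1, 2 and 3 and 1959, 2135 and 2198 in Prmt1-null 1, 2 and 3. The groups overlapped over most of their range, and the log2 fold change was −0.05 ± 0.08 (SE; 95% interval −0.22 to 0.13; adjusted p = 0.85). Without Prmt1-null 1 its sign turned to 0.003. Exons of Cdc20 share 53 bases with Elovl1 on the other strand, and those of Mad1l1 share 37 bases with Gm16121.

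The chromosomal passenger complex corrects wrong attachments, and shugoshin protects the cohesin at centromeres. All 5 of these genes were below 0 (median log2 fold change −0.12), and Aurkb was lower at an unadjusted p under 0.05. Aurkb (chromosome 11, 69045647-69051664), the kinase of the complex, had 4017, 3553 and 4035 normalized counts in Control 1, 2 and 3 and 3140, 3281 and 3177 in Prmt1-null 1, 2 and 3. The Prmt1-null libraries were tightly grouped below the lowest Control library, at 82.7% of the Control mean. The log2 fold change was −0.27 ± 0.07 (SE; 95% interval −0.42 to −0.13; adjusted p = 0.073 by edgeR and 0.013 by DESeq2).

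Incenp, the scaffold that binds and activates Aurkb, had 4881, 4820 and 5792 normalized counts in Control 1, 2 and 3 and 4540, 4884 and 4602 in Prmt1-null 1, 2 and 3. Prmt1-null 2 lay above the 2 lower Control libraries, and the log2 fold change was −0.14 ± 0.07 (SE; adjusted p = 0.43), or −0.05 without Control 3. Cdca8 (borealin) had 1853, 1846 and 1829 normalized counts in Control 1, 2 and 3 and 1580, 1624 and 1987 in Prmt1-null 1, 2 and 3. Its Control libraries were almost equal and Prmt1-null 3 was the highest of all 6 (log2 fold change −0.09 ± 0.10, SE; adjusted p = 0.75). Exons of Cdca8 share 232 bases with 9930104L06Rik on the other strand. Birc5 (survivin) stood at −0.12 ± 0.10 and Sgol1 at −0.10 ± 0.09.

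The remaining 6 genes take part in keeping microtubules attached: the Ska complex, Spag5 (astrin) with its partner Knstrn (kinastrin), and the mitotic kinase Plk1. All were below 0, with the smallest median of the role groups (−0.07), and Spag5 was lower at an unadjusted p under 0.05. Spag5 (chromosome 11, 78301529-78322457) had 1796, 1938 and 2060 normalized counts in Control 1, 2 and 3 and 1606, 1523 and 1617 in Prmt1-null 1, 2 and 3. No Prmt1-null library reached the lowest Control library, and the log2 fold change was −0.29 ± 0.09 (SE; adjusted p = 0.13 by edgeR and 0.035 by DESeq2). Knstrn, its partner, stood at −0.03 ± 0.11.

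Ska3 had 1198, 1222 and 1168 normalized counts in Control 1, 2 and 3 and 1038, 1126 and 1195 in Prmt1-null 1, 2 and 3, and the groups overlapped (log2 fold change −0.10 ± 0.10, SE; adjusted p = 0.74). Ska1, the gene with the lowest counts, stood at −0.14 ± 0.19 and Ska2 at −0.05 ± 0.08. Plk1 had 4409, 3593 and 4496 normalized counts in Control 1, 2 and 3 and 3874, 3921 and 4513 in Prmt1-null 1, 2 and 3. The Prmt1-null values of Plk1 lay almost wholly within the Control range, and the log2 fold change was −0.02 ± 0.09 (SE; 95% interval −0.21 to 0.17; adjusted p = 0.94). Ska2, Ska3, Knstrn and Plk1 share 78 to 329 exon bases with genes on the other strand.

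**Figure D3:**
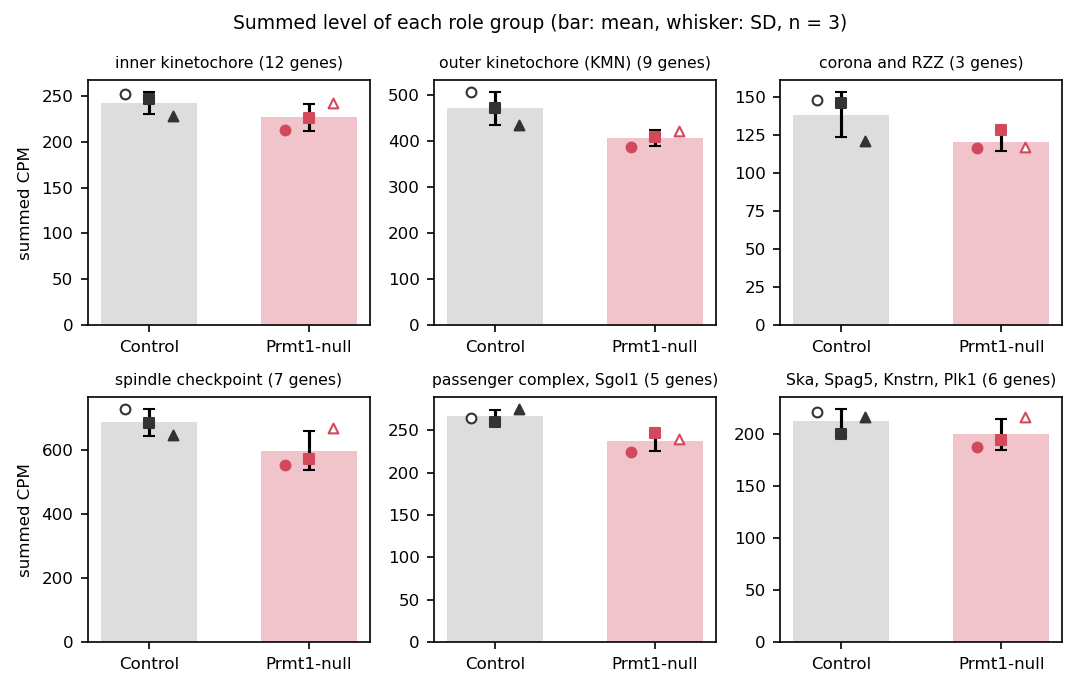
Summed level of each role group in CPM (vertical axes start at 0), with the mean (bar), SD (whisker, n = 3) and each library (circles, squares and triangles for replicates 1, 2 and 3, open for male mice). The Control and Prmt1-null libraries do not overlap for the KMN network (435 to 507 against 388 to 423 CPM) and the passenger complex with Sgol1 (260 to 275 against 225 to 246 CPM), and overlap for the other 4 groups.

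The plot of the summed levels shows the genes by role. The KMN network gave 507, 471 and 435 CPM in Control 1, 2 and 3 and 388, 408 and 423 CPM in Prmt1-null 1, 2 and 3. The passenger complex with Sgol1 gave 265, 260 and 275 CPM in Control and 225, 246 and 240 CPM in Prmt1-null 1, 2 and 3. These were the role groups without overlap. The checkpoint genes gave 727, 684 and 645 CPM in Control 1, 2 and 3 and 553, 571 and 668 CPM in Prmt1-null 1, 2 and 3, where Prmt1-null 3 was above Control 3. In the inner kinetochore Prmt1-null 3 (242 CPM) was also above Control 3 (228 CPM). No test was made of these sums. Levels per length depended on the length used. In CPM per kb of the main annotated transcript, the level in Control iGBs was highest for Bub3, at 63.7 ± 3.6 (SD, n = 3), and lowest for Ska1, at 1.89 ± 0.37. In CPM per kb of all annotated exons, which are 7006 bases for Bub3 in place of 2218, Bub3 was at 20.2 ± 1.1, the highest level was that of Plk1, at 34.3 ± 4.0, and the lowest was that of Mad1l1, at 1.79 ± 0.24, with Cenpk, Cenpw and Ska1 within its spread.

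Fold changes of genes with and without a CHR word are given here for the 36 genes with a window. Of the 19 genes with a CHR word, 17 were below 0, and their median log2 fold change was −0.12, against −0.16 for the 17 genes whose windows held none. Of the 12 genes that were lower at an unadjusted p under 0.05 and had a window, 6 held a CHR word and 6 held CCAAT. Among the sequences shown above, Cenpa with the highest fold change, Ndc80 with among the lowest, and Cdc20 and Plk1 near 0 each held the word TTTGAA within 31 bases of the start site. These are descriptions, with no test. The 6 genes without a window could not be placed in either set. Of these, Spc24, Zwilch, Aurkb and Nsl1 were lower at an unadjusted p under 0.05, and Incenp and Ska1 were not.

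**Figure D4:**
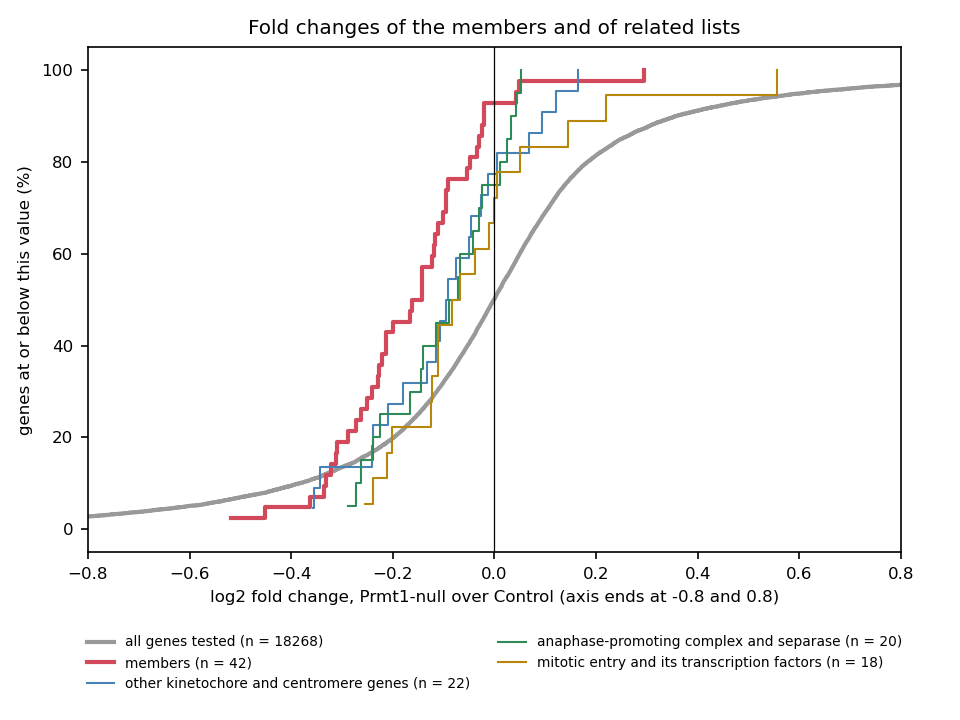
Cumulative share of genes (vertical axis, percent) at or below each log2 fold change, Prmt1-null over Control (horizontal axis, which ends at −0.8 and 0.8), for the 42 genes (red), 3 related lists and all 18268 genes tested (gray). The red curve reaches 92.9% at 0, where the gray curve stands at 50.1%, and the curves of the related lists lie between them there.

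The related lists are set beside the 42 genes in the cumulative plot, with no test of the difference between lists. Of all genes tested, 7.00% were lower and 6.50% higher at an unadjusted p under 0.05, and edgeR called 0.602% lower and 0.580% higher. DESeq2 called 2.98% of all genes with an adjusted p lower and 2.44% higher, and edgeR without a filter called 1.38% lower. Of 22 other kinetochore and centromere genes, 17 were below 0 (median log2 fold change −0.09), and 0 were called by edgeR in either direction, with 5 lower and 0 higher at an unadjusted p under 0.05. Sgol2, the second shugoshin, had 3961, 3565 and 3086 normalized counts in Control 1, 2 and 3 and 2675, 2815 and 2790 in Prmt1-null 1, 2 and 3. All Prmt1-null libraries were below the lowest Control library (log2 fold change −0.36 ± 0.08, SE; adjusted p = 0.057 by edgeR, 0.063 by limma-voom and 0.0048 by DESeq2). Exons of Sgol2 share 2455 of 7007 bases with Kctd18 on the other strand, so its count is uncertain. Haspin, the kinase whose mark on histone H3 draws the passenger complex to centromeres, had 1175, 1149 and 1175 in Control 1, 2 and 3 and 836, 912 and 987 in Prmt1-null 1, 2 and 3. The groups did not overlap (log2 fold change −0.35 ± 0.10, SE; adjusted p = 0.12 by edgeR and 0.029 by DESeq2). Of the 22 genes, DESeq2 called 3 lower (Sgol2, Haspin and Oip5) and edgeR without a filter on low counts called 2 lower (Sgol2 and Kntc1).

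Of 20 genes of the anaphase-promoting complex, its regulators and separase, 15 were below 0 (median −0.08), 0 were called by edgeR, and 5 were lower and 0 higher at an unadjusted p under 0.05. Espl1 (separase), the protease that cuts cohesin at anaphase, had 4148, 4523 and 4274 normalized counts in Control 1, 2 and 3 and 3239, 3858 and 3688 in Prmt1-null 1, 2 and 3. Fbxo5 (Emi1), an inhibitor of the complex, had 1652, 1656 and 1551 in Control and 1221, 1370 and 1389 in Prmt1-null 1, 2 and 3. For neither gene did the groups overlap. The log2 fold changes were −0.26 ± 0.07 for Espl1 (adjusted p = 0.10 by edgeR and 0.028 by DESeq2) and −0.29 ± 0.09 for Fbxo5 (adjusted p = 0.16 and 0.052). Espl1 was called lower by DESeq2 and by edgeR without a filter, as 1 of the 20 genes. Of all genes, these called 2.98% and 1.38% lower.

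Of 18 genes of mitotic entry and its transcription factors, 13 were below 0 (median −0.08), 0 were called by edgeR, and 3 were lower and 1 higher at an unadjusted p under 0.05. Ccnb2, a partner of Cdk1, had 5475, 5454 and 5581 normalized counts in Control 1, 2 and 3 and 4297, 4624 and 4909 in Prmt1-null 1, 2 and 3. The gene that was higher was Cdkn1a, which encodes the CDK inhibitor p21, with 635, 724 and 630 in Control 1, 2 and 3 and 1043, 774 and 1111 in Prmt1-null 1, 2 and 3. The groups did not overlap for either gene, though Prmt1-null 2 came near Control 2 for Cdkn1a. The log2 fold changes were −0.26 ± 0.06 for Ccnb2 (adjusted p = 0.068 by edgeR and 0.0098 by DESeq2) and 0.56 ± 0.14 for Cdkn1a (adjusted p = 0.075 and 0.0069), and DESeq2 and edgeR without a filter called both and no other gene of this list. Cdkn1a has exons that share 273 bases with a transcript of the GENCODE class TEC (to be tested by experiment) on the other strand.

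Of 9 genes that mark proliferation in general, 5 were below 0 (median −0.07), 0 were called by edgeR, and 2 were lower and 1 higher at an unadjusted p under 0.05. Top2a, the topoisomerase of G2 and mitosis, had 47549, 44381 and 41563 normalized counts in Control 1, 2 and 3 and 38080, 40250 and 38968 in Prmt1-null 1, 2 and 3. Mcm3, a subunit of the replicative helicase loaded in G1, had 11225, 11786 and 11680 in Control and 12448, 13145 and 13729 in Prmt1-null 1, 2 and 3. Thus both genes separated the groups, in opposite directions. The log2 fold changes were −0.19 ± 0.07 for Top2a (adjusted p = 0.21 by edgeR and 0.041 by DESeq2) and 0.18 ± 0.06 for Mcm3 (adjusted p = 0.18 and 0.049). DESeq2 called both, and limma-voom and edgeR without a filter called 0 of the 9 genes.

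Markers of other cell types were measured beside these results. Of all genes tested, 7.00% were lower and 6.50% higher at an unadjusted p under 0.05 by edgeR. Summed levels of 6 plasma cell markers were 972 to 1093 CPM in Control and 1089 to 1211 CPM in Prmt1-null iGBs. Of the 5 of these that were tested, 0 were called by edgeR, with 2 higher and 0 lower at an unadjusted p under 0.05. Xbp1, a transcription factor of secretory cells, was called higher by DESeq2, limma-voom and edgeR without a filter. Fibroblast markers, which would come from feeder cells, were at 27.2 to 32.0 CPM in Control and 31.0 to 37.5 CPM in Prmt1-null iGBs, with 0 of the 10 tested (of 12) called by edgeR, 2 higher and 0 lower at an unadjusted p under 0.05, and no count of Postn or Lum in any library. T cell markers were at 12.8 to 15.7 and 13.2 to 16.1 CPM, and of the 5 tested (of 6) 0 were called or had an unadjusted p under 0.05. Macrophage markers were at 8.98 to 12.3 CPM in Control and 15.1 to 15.7 CPM in Prmt1-null iGBs, without overlap, and of these 5 markers Adgre1 passed the threshold as higher (300.1, 354 and 404 against 565, 534 and 658; log2 fold change 0.73, adjusted p = 0.032). The separation was that of Adgre1: the other 4 markers summed to 3.53 to 5.27 CPM in Control and 3.73 to 5.53 CPM in Prmt1-null iGBs, and none of those tested had an unadjusted p under 0.05. The part of these in the results above was not tested.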

How the data were processed

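RNA-seq libraries were made from total RNA of iGBs with a stranded kit after ribosomal RNA depletion. Per the methods and the submitters' processing notes, the authors used Trimmomatic 0.32 for trimming, STAR 2.3.0e for alignment to mm10 and featureCounts 1.4.4 for counting on exons. The deposited table holds raw gene counts without normalization. Genes were matched to GENCODE M21 (37693 by ID, 803 by symbol, 521 not matched). Casc5 and Sgol1 are Knl1 and Sgo1 there.

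The analysis used edgeR 4.0.16 (R 4.3.3). After 398 chromosome Y genes were left out, 18268 genes passed filterByExpr (minimum count 10) and entered the two-sided quasi-likelihood test with TMM factors and Benjamini-Hochberg adjustment over all of them. Calls needed an adjusted p below 0.05 and normalized counts averaging over 100. Normalized counts are counts scaled to the mean effective library size. SEs were derived from the fold change and the F statistic. The groups of 3 have wide errors (biological coefficient of variation 0.154), and 3 counts in a library correspond to 0.0478 to 0.0662 CPM, for counting error only. Alternatives were DESeq2 1.42.0 (with no prior or a zero-centred one), limma-voom (limma 3.58.1), DESeq2 size factors, no filter, the replicate number as a block, sex as a covariate, female libraries only, chromosome Y genes kept, no minimum mean, and each library left out. The DESeq2 fits started from counts without filterByExpr. The steps were tested on simulated data. The genes, role groups and other lists were chosen with earlier results of these data known.

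Genes named with values in every library are Prmt1 and, of each role group, the 2 with the smallest p and those with the highest and the lowest fold change, and of each related list the 2 with the smallest p. Casc5, Cr2 and Adgre1 were added, Casc5 after its values had been seen, and Cr2 and Adgre1 as marker genes past the threshold.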

Additional observations from a re-analysis of the deposited data

How the results depend on the processing

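Of the 42 genes, 0 were called lower by edgeR, against 6 by DESeq2 with or without the prior, 4 with no filter on low counts, and 0 to 2 when each library was left out, the 2 (Spc24 and Casc5) without Control 3. The number called higher was 0, against 1 (Cenpa) by DESeq2 with or without the prior. The cause was not tested, and the DESeq2 fits changed the test and the filter together. The median log2 fold change was −0.222 to −0.121 when each library was left out, the first value without Control 3, against a spread of 0.0558 (SD) between libraries of a group. The number lower at an unadjusted p under 0.05 was 10 to 19 in these fits, and the number without overlap was 13 to 23, and 24 in the female libraries alone. The share of all genes without overlap also rose, from 9.92% to 14.3%, 16.3% and 14.4% without Control 2, Control 3 and Prmt1-null 3 and to 21.0% in the female libraries. Of 96 values for the whole list, 84 were equal or close to those given. Among these are counts of 0 calls, which have no direction. Others were fixed in advance, as the fit with no minimum mean was the main fit. The overlap counts of limma-voom, the block and the sex covariate came from the same normalized counts. Of the values for single named genes, 375 kept their direction and side of the threshold, 36 passed it, and 5 changed sign. The latter were Plk1 (range −0.119 to 0.0384 when each library was left out), at 0.0251 without Control 1, 0.0384 without Control 3, 0.0226 without Prmt1-null 1 and 0.0160 without Prmt1-null 2, and Cdc20 (range −0.0907 to 0.00316), at 0.00316 without Prmt1-null 1. With the replicate number as a block, edgeR called 0 of the 42 genes, 17 were lower at an unadjusted p under 0.05 (6.41% of all genes) and the median was −0.151. Same-numbered libraries come from different mice, and their deviations from the group means were correlated at −0.070, 0.052 and −0.079. The largest correlation between any 2 libraries of different groups was 0.123, for Control 1 with Prmt1-null 3, the male pair. Deviations in a group of 3 sum to 0, so these values constrain each other and cannot settle whether libraries were paired. Of all genes tested, 70 were called lower and 81 higher with this block, against 110 and 106 without it. Groups of 3 limit the precision, with SEs of 0.061 to 0.187 on the log2 scale.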
